A study of Mus musculus with 8 samples.

Results

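Adipocyte precursors are mesenchymal cells of skin and fat that can form fat cells, and they are recognised by a set of proteins on their surface. The 10 genes described here encode such markers: Pdgfra, Cd34, Ly6a, Ly6c1, Cd24a, Dpp4, Pi16, Thy1, Nt5e and Cd9. They were taken by symbol, as the rows of the deposited isoform table that carry 1 of these names in the gene column. All 10 were found among 24358 gene symbols, with 22 of the 34535 isoforms listed, and 21 of the 22 had been tested by the authors.

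Cells of the dermis were isolated by FACS, which sorts single cells by fluorescent label, and came from male C57/Bl6 mice aged 7 weeks. The wound bed group holds 2 samples taken at day 5, and the nonwounded group holds 6 samples of dorsal skin. The labels state neither the antibodies of the sort, nor the kind of wound, nor whether animals were pooled or the samples came from separate animals, so that the p-values may measure technical spread only. For each isoform the authors deposited 1 FPKM per group (fragments mapped to a transcript, scaled by its length and by the size of the library) and 1 Cuffdiff p-value, without values per sample, so no SD and no exact test over samples can be given, and sequencing depth is unknown.

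Pdgfra encodes a receptor tyrosine kinase for platelet-derived growth factors and marks most fibroblasts and fat precursors. Cd34 encodes a sialomucin. Ly6a (Sca-1), Ly6c1, Cd24a, Thy1 and Nt5e encode proteins held in the membrane by a glycosylphosphatidylinositol (GPI) anchor, Dpp4 a membrane peptidase, Cd9 a tetraspanin, and Pi16 a protein of the CAP family. In mouse and human connective tissue, cells with much Dpp4 and Pi16 are regarded as a progenitor state of the interstitium that lies upstream of committed preadipocytes. Cd24a has been used in mouse fat to divide early precursors from those further along the fat lineage.

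Several of these genes have near copies, which matters for how reads are assigned. The first 120 coding bases of Ly6c1, its neighbour Ly6c2 and Ly6a are shown for this reason, 5′ to 3′ from the start codon, with capitals marking bases that differ from Ly6c1 at the same position. They are GENCODE M21 transcripts on GRCm38, chromosome 15, minus strand.
Ly6c1: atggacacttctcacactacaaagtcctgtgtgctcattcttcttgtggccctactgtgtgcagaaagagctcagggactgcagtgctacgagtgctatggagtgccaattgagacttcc
Ly6c2: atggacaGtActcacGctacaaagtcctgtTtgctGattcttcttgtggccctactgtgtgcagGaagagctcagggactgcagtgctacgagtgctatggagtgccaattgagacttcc
Ly6a: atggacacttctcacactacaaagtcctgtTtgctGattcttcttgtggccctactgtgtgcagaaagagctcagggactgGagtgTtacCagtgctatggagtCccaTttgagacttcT
In this stretch Ly6c2 differs from Ly6c1 at 6 positions and Ly6a at 8. Over the whole coding sequence the identity with Ly6c1 was 97.7% for Ly6c2 and 81.8% for Ly6a, so reads can be shared between Ly6c1 and Ly6c2 and their separate levels are uncertain.

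The sorted cells carried the transcripts of fibroblasts and precursors in both groups. Dcn, which encodes the matrix proteoglycan decorin, stood at a gene sum of 3153 FPKM in the wound bed and 3831 FPKM in nonwounded skin, and the mesenchymal transcription factor gene Prrx1 at 97.1 FPKM in the wound bed and 92.6 FPKM in nonwounded skin. Of genes that define other cell types, the epithelial gene Epcam stood at 0.261 FPKM in the wound bed and 0.824 FPKM in nonwounded skin, the endothelial gene Cdh5 at 1.39 FPKM in the wound bed and 0.929 FPKM in nonwounded skin, and the pan-leukocyte gene Ptprc at 5.68 FPKM in the wound bed and 0.806 FPKM in nonwounded skin. Other such genes were abundant: the macrophage genes Lyz2 and Ctss stood at 524 and 141 FPKM in the wound bed and at 174 and 16.2 FPKM in nonwounded skin, and the haemoglobin gene Hba-a1 at 121 FPKM in the wound bed and 1994 FPKM in nonwounded skin. A gene sum is the sum of the FPKM over the isoforms of a gene, apart from 15 isoforms of all genes for which the authors' status gave no usable value and of which the markers have none, and it carries no p-value.

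Markers of some other cells moved with the groups, and their part in the results below was not tested. Of tested macrophage and monocyte markers 12 of 16 were called higher, and the whole list summed to 1064 FPKM in the wound bed and 342 FPKM in nonwounded skin. Leukocyte markers (4 of 10 called higher) summed to 131 FPKM in the wound bed and 42.6 FPKM in nonwounded skin, and neutrophil markers (0 of 5 called, 2 higher at an unadjusted Cuffdiff p under 0.05) to 105 FPKM in the wound bed and 2.84 FPKM in nonwounded skin. In the wound bed the neutrophil sum was mostly S100a9 and S100a8, both uncalled. They stood at 56.9 and 40.0 FPKM in the wound bed and at 0.551 and 0.925 FPKM in nonwounded skin. Erythroid markers (5 of 6 called lower) summed to 206 FPKM in the wound bed and 3746 FPKM in nonwounded skin, with Slc4a1 and Epb4.2 listed at 0 in the wound bed, and mature adipocyte markers (4 of 11 lower) to 64.7 FPKM in the wound bed and 307 FPKM in nonwounded skin. Mast cell markers (4 of 6 lower) summed to 10.5 FPKM in the wound bed and 60.6 FPKM in nonwounded skin, endothelial markers (2 of 8 lower) to 30.5 FPKM in the wound bed and 98.6 FPKM in nonwounded skin, and pericyte and smooth muscle markers (1 of 6 lower) to 36.5 FPKM in the wound bed and 75.4 FPKM in nonwounded skin. Hdc of the mast cell list went the other way, at 4.07 FPKM in the wound bed and 1.06 FPKM in nonwounded skin, without a call. The endothelial sum was mostly Tek (18.4 FPKM in the wound bed and 83.1 FPKM in nonwounded skin) and came to 12.1 FPKM in the wound bed and 15.5 FPKM in nonwounded skin without it, with a median log2 ratio of -0.06 over the list. The most abundant pericyte gene was Kcnj8 (14.9 FPKM in the wound bed and 58.3 FPKM in nonwounded skin), and the pericyte sum without it was higher in the wound bed, at 21.6 FPKM in the wound bed and 17.1 FPKM in nonwounded skin, with a median log2 ratio of -0.01 over the list. The sums without Tek and Kcnj8 were added after seeing the data. Skeletal muscle markers (1 of 8 lower) summed to 8.65 FPKM in the wound bed and 110 FPKM in nonwounded skin, Schwann cell and melanocyte markers (1 of 5 lower) to 10.6 FPKM in the wound bed and 19.8 FPKM in nonwounded skin, and keratinocyte markers (2 of 10 higher) to 39.7 FPKM in the wound bed and 25.1 FPKM in nonwounded skin.

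The comparison asks how the transcripts of adipocyte precursors in a wound bed differ from those in intact skin. Of the 10 surface markers, 5 had an isoform called lower in the wound bed, namely Dpp4, Cd24a, Ly6c1, Ly6a and Nt5e, and 0 had one called higher. A call means a Benjamini-Hochberg adjusted p under 0.05, adjusted here over all 17775 tested isoforms from the authors' deposited p-values. In the same comparison 9.16% of 13719 tested genes had an isoform called lower and 7.21% one called higher. Among 5251 genes with a mean gene sum of at least 10 FPKM over both groups, a level that all 10 markers reached, the shares were 10.8% and 11.6%. By isoform, 6 of the 21 tested were called lower and 15 were not called, against 7.25% of all tested isoforms called lower and 5.66% called higher. At an unadjusted Cuffdiff p under 0.05, 7 of the markers had a lower isoform and 1, Cd9, a higher one. The share of all tested genes at this unadjusted threshold was not computed. The unadjusted counts here and for other lists thus have no background and cannot be set beside the adjusted shares.

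By gene sum, 8 of the 10 were lower and 2, Pdgfra and Cd9, were higher in the wound bed. The median log2 ratio of the 10 sums was -0.81, beside -0.10 over 5167 tested genes with a mean of at least 10 FPKM and values above 0 in both groups. In the sum over all 10 markers the wound bed reached 4049 FPKM and nonwounded skin 7210 FPKM. In bulk RNA of sorted cells, fewer cells that express a gene and less RNA per cell cannot be told apart. If a marker was also used in the sort, its level is set in part by the gate, and level and gate cannot be told apart either.

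**Figure D1:**
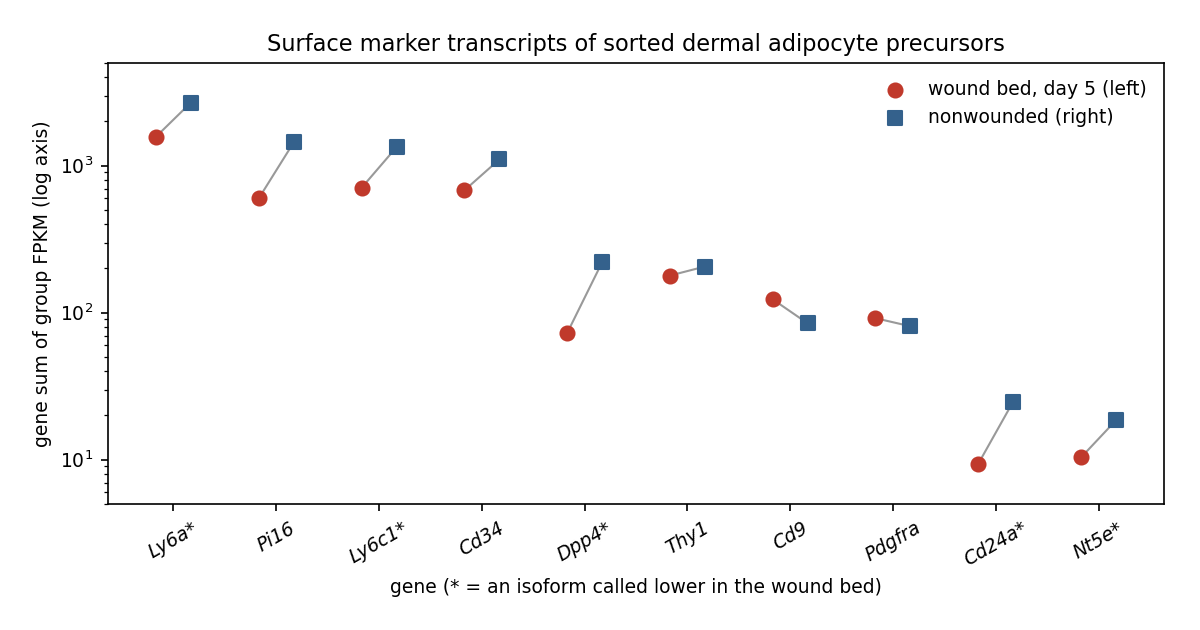
Gene sum of FPKM (vertical log axis) for each of the 10 markers, 1 red circle for the wound bed at day 5 and 1 blue square for nonwounded skin, each a single group value without a replicate error. Dpp4 lies at 72.7 FPKM in the wound bed and 220 FPKM in nonwounded skin, while Pdgfra lies at 91.8 FPKM in the wound bed and 80.9 FPKM in nonwounded skin and Cd9 at 123 FPKM in the wound bed and 84.7 FPKM in nonwounded skin.

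The order of the levels changed in part between the groups. Ly6a was highest in both, and Ly6c1, Cd34, Thy1, Cd9 and Pdgfra kept their order relative to each other. Pi16 and Dpp4 stood further down in the wound bed, and Nt5e and Cd24a exchanged the last places. In the wound bed the order ran Ly6a, Ly6c1, Cd34, Pi16, Thy1, Cd9, Pdgfra, Dpp4, Nt5e and Cd24a, with 1576 FPKM at the top and 9.38 FPKM at the bottom. In nonwounded skin it ran Ly6a, Pi16, Ly6c1, Cd34, Dpp4, Thy1, Cd9, Pdgfra, Cd24a and Nt5e, with 2691 FPKM at the top and 18.6 FPKM at the bottom. Without values per sample it cannot be said whether neighbours in these orders differ beyond their spread. Among all genes with a sum above 0, Ly6a ranked 30 of 17471 in the wound bed and 10 of 20746 in nonwounded skin, whereas Cd24a ranked 5259 in the wound bed, against 2625 in nonwounded skin.

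Pdgfra, the receptor, had a gene sum of 91.8 FPKM in the wound bed and 80.9 FPKM in nonwounded skin, a log2 ratio of 0.18 that was 0.31 once the ratios were centred on the median gene. Thy1 was the other marker close to 0, at -0.20 and, centred, -0.07. Most of the Pdgfra sum came from the isoform NM_011058, at 81.2 FPKM in the wound bed and 78.8 FPKM in nonwounded skin. The second Pdgfra isoform, NM_001083316, stood at 10.6 FPKM in the wound bed and 2.09 FPKM in nonwounded skin, for a log2 fold change of 2.35 that was not called (Benjamini-Hochberg adjusted p = 0.297 from the authors' test). Its share of the gene sum was 11.6% in the wound bed, against 2.58% in nonwounded skin. In GENCODE both encode 1089 amino acids, and the transcript matched to the second isoform starts 3593 bases further along the gene, so the pair differ at their first exon.

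Dpp4 encodes a peptidase that removes N-terminal dipeptides from chemokines and hormones, and it had the most negative gene sum ratio of the 10. Its sum was 72.7 FPKM in the wound bed and 220 FPKM in nonwounded skin, a log2 ratio of -1.60, and 3.17% of the genes with a mean of at least 10 FPKM had a lower ratio. The isoform NM_010074 fell to 66.7 FPKM in the wound bed, against 211 FPKM in nonwounded skin (log2 fold change -1.66, Benjamini-Hochberg adjusted p = 0.000882 from the authors' test). The minor isoform NM_001159543 stood at 5.96 FPKM in the wound bed and 9.31 FPKM in nonwounded skin, and was not called (adjusted p = 0.255 from the authors' test). Relative to Pdgfra in the same group, the Dpp4 sum was 0.792 times as high in the wound bed and 2.72 times in nonwounded skin. The Dpp4 locus of the table lies on chromosome 2 from 62330073 to 62412231.

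Pi16, named after a peptidase inhibitor and often paired with Dpp4 as a marker of interstitial fibroblasts, has a single isoform in the table. It stood at 600 FPKM in the wound bed and 1442 FPKM in nonwounded skin, for a log2 fold change of -1.27. That difference narrowly missed the call, with a Benjamini-Hochberg adjusted p of 0.0559, and it was called when the threshold was set at 0.1. Pi16 ranked 140 among all genes in the wound bed, against 40 in nonwounded skin. Its locus lies on chromosome 17 from 29318882 to 29328902.

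Cd24a encodes a short, heavily glycosylated GPI-anchored protein. It fell to 9.38 FPKM in the wound bed, against 24.9 FPKM in nonwounded skin, for a log2 fold change of -1.41 (Benjamini-Hochberg adjusted p = 0.00239 from the authors' test). This single-isoform gene was among the least abundant of the markers in both groups. Red cells, neutrophils and keratinocytes of the mouse also carry this protein, and the erythroid list given above was lower in the same direction, while the neutrophil and keratinocyte lists were higher.

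Nt5e encodes CD73, the enzyme that releases adenosine from AMP outside the cell. It fell to 10.4 FPKM in the wound bed, against 18.6 FPKM in nonwounded skin (log2 fold change -0.84, Benjamini-Hochberg adjusted p = 0.0174 from the authors' test). Nt5e was no longer called with a threshold of 0.01 or where the log2 fold change had to reach 1. Thy1, which encodes the GPI-anchored adhesion protein CD90, stood at 179 FPKM in the wound bed and 206 FPKM in nonwounded skin and was not called (log2 fold change -0.20, adjusted p = 0.609 from the authors' test).

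Ly6a encodes Sca-1 and was the most abundant of the 10 markers in both groups. Its 6 isoforms summed to 1576 FPKM in the wound bed and 2691 FPKM in nonwounded skin, a log2 ratio of -0.77. Most of this was the isoform NM_001271419, with 1539 FPKM in the wound bed and 2149 FPKM in nonwounded skin, which was not called (adjusted p = 0.390 from the authors' test). The calls came from a pair of minor isoforms, and Ly6a had no call where the most abundant isoform alone was counted. NM_010738 fell to 18.4 FPKM in the wound bed, against 354 FPKM in nonwounded skin (log2 fold change -4.27, Benjamini-Hochberg adjusted p = 0.000882 from the authors' test). NM_001271417 fell to 9.75 FPKM, against 176 FPKM in nonwounded skin (log2 fold change -4.18, adjusted p = 0.00608 from the authors' test).

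The shares of the Ly6a isoforms also stood apart between the groups, a difference that was not tested. The major isoform made up 97.7% of the gene sum in the wound bed, against 79.9% in nonwounded skin, and NM_010738 made up 1.16% in the wound bed, against 13.2% in nonwounded skin. Of the remaining isoforms, NM_001271418 stood at 8.79 FPKM in the wound bed and 4.40 FPKM in nonwounded skin, and NM_001271416 was listed at 0 in the wound bed and at 7.52 FPKM in nonwounded skin, both without a call. NM_001271446 was listed at 0 in both groups and was not tested. In GENCODE the 5 full-length Ly6a transcripts share 1 coding sequence of 134 codons and have 5 different first exons, so those transcripts differ outside the coding part. All the Ly6a isoforms listed were matched to a single GENCODE transcript, so which first exon belongs to which isoform was not resolved. Reads of such isoforms overlap over most of their length, and the split between them is an estimate. The Ly6a locus lies on chromosome 15 from 74994877 to 74998031.

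**Figure D2:**
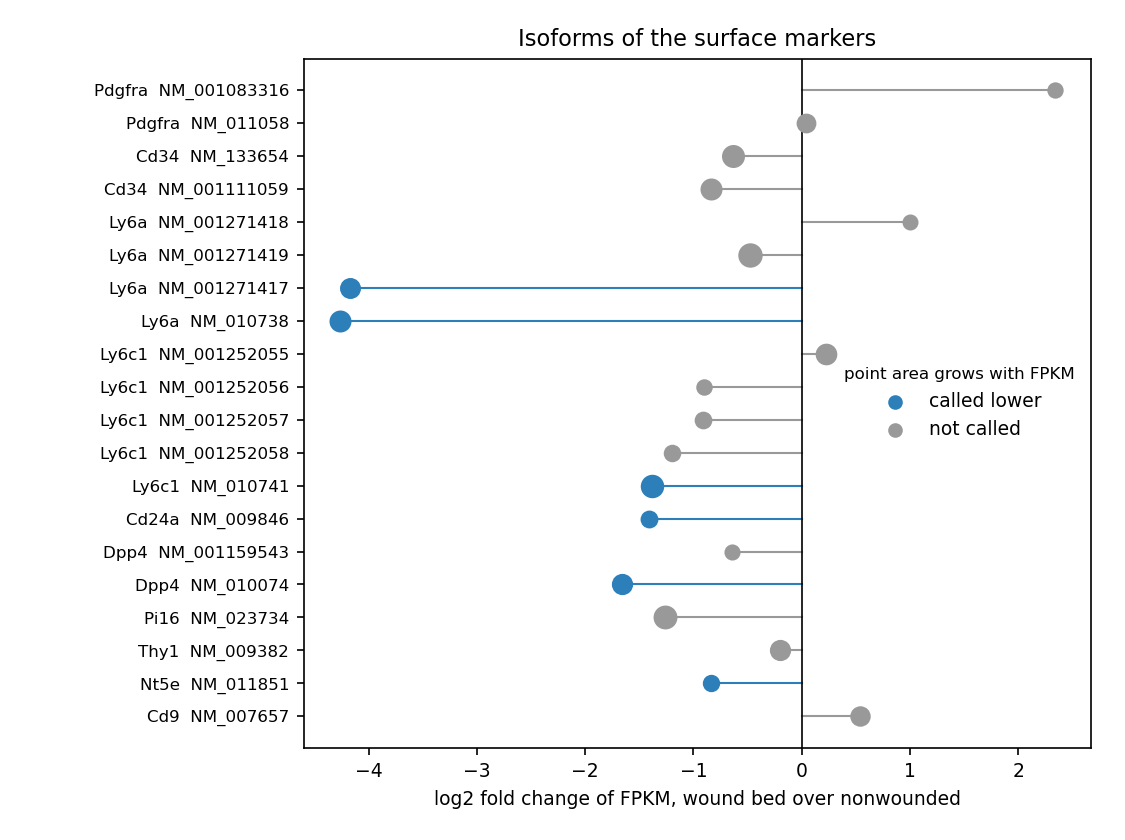
Log2 fold change of FPKM, wound bed over nonwounded (horizontal axis), for each tested isoform of the 10 markers with values above 0 in both groups (rows), blue if called lower and grey if not called, with point area growing with FPKM. The 2 called Ly6a isoforms lie at -4.27 and -4.18, while the most abundant one lies at -0.48.

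Ly6c1, a neighbour of Ly6a that encodes another small GPI-anchored protein of the same family, had a gene sum of 708 FPKM in the wound bed and 1338 FPKM in nonwounded skin (log2 ratio -0.92). Its main isoform NM_010741 fell to 400 FPKM in the wound bed, against 1043 FPKM in nonwounded skin (log2 fold change -1.38, Benjamini-Hochberg adjusted p = 0.000882 from the authors' test). The isoform NM_001252055 went the other way, at 281 FPKM in the wound bed and 240 FPKM in nonwounded skin, without a call (adjusted p = 0.615 from the authors' test). The share of NM_010741 was 56.5% in the wound bed, against 77.9% in nonwounded skin, and that of NM_001252055 was 39.7% in the wound bed, against 18.0% in nonwounded skin. GENCODE pairs both with a single transcript of 131 codons. The other 3 isoforms stood between 6.14 and 12.2 FPKM in the wound bed and between 11.5 and 22.9 FPKM in nonwounded skin, without a call. The Ly6c1 locus lies on chromosome 15 from 75044018 to 75048837.

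Cd34 had a gene sum of 679 FPKM in the wound bed and 1104 FPKM in nonwounded skin, a log2 ratio of -0.70, and neither isoform was called. NM_133654, which encodes 382 amino acids in GENCODE, stood at 476 FPKM in the wound bed and 739 FPKM in nonwounded skin (Benjamini-Hochberg adjusted p = 0.267 from the authors' test). NM_001111059, the shorter form of 325 amino acids, stood at 204 FPKM in the wound bed and 364 FPKM in nonwounded skin (adjusted p = 0.0673 from the authors' test) and was called at an adjusted p under 0.1. The longer form made up 70.0% of the sum in the wound bed, against 67.0% in nonwounded skin, so the shares were similar.

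**Figure D3:**
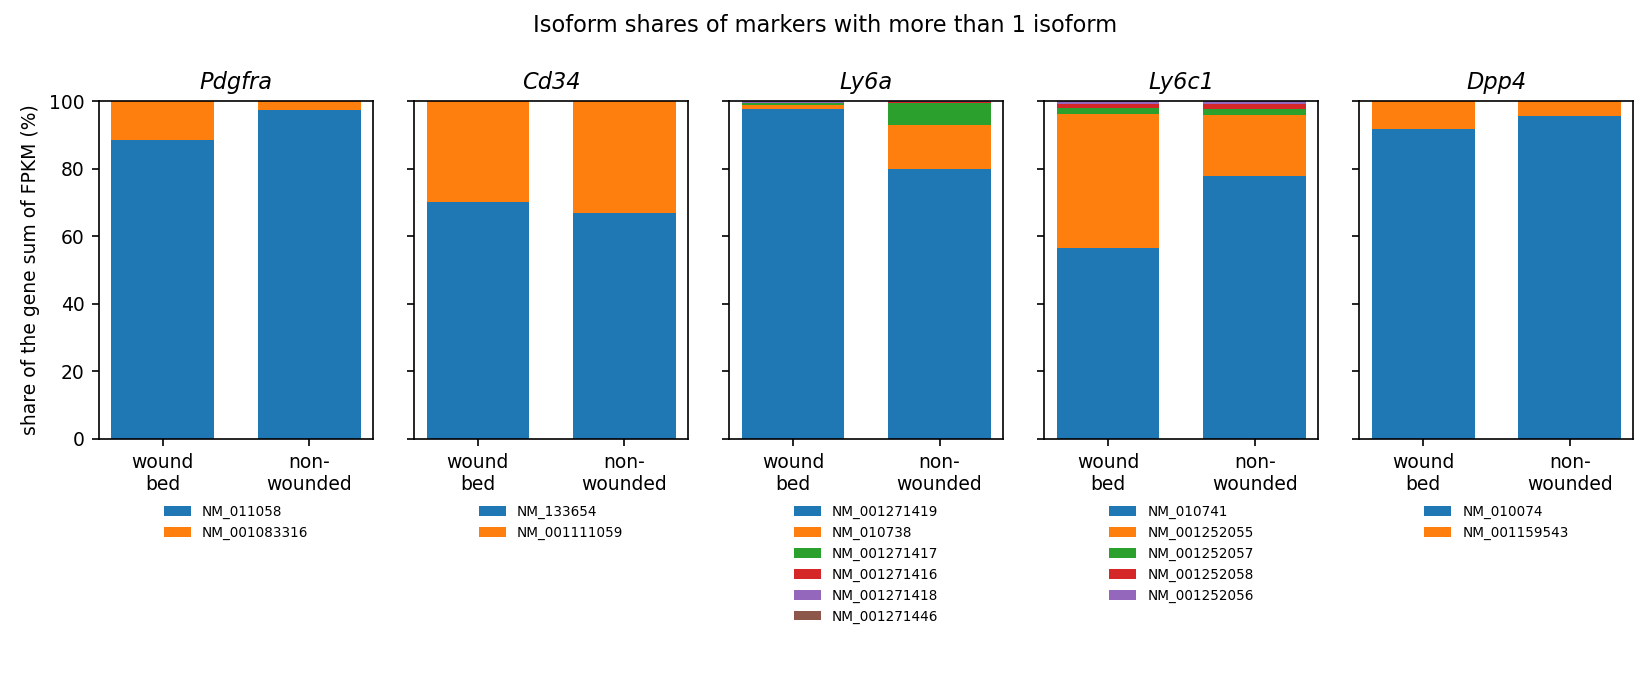
Share of each isoform in the gene sum of FPKM (vertical axis, percent), for the 5 markers with more than 1 isoform, the left bar for the wound bed and the right bar for nonwounded skin. The main isoform of Ly6a takes 97.7% in the wound bed, against 79.9% in nonwounded skin, that of Ly6c1 56.5% in the wound bed, against 77.9% in nonwounded skin, and that of Cd34 70.0% in the wound bed, against 67.0% in nonwounded skin.

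Cd9, the tetraspanin, had the largest positive gene sum ratio of the 10. It stood at 123 FPKM in the wound bed and 84.7 FPKM in nonwounded skin, for a log2 fold change of 0.54, and was not called (Benjamini-Hochberg adjusted p = 0.142 from the authors' test). Of genes with a mean of at least 10 FPKM, 18.1% had a higher ratio. Macrophages also carry this protein, and their markers were higher in the wound bed column.

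Promoter sequences from RefSeq (GRCm38.p6) were matched by symbol for 7 of the 10 markers. The 150 bases before the start are shown for the 3 of these that had an isoform called lower, 5′ to 3′ on the strand of the gene, with capitals marking matches to the motifs named below. They lie at chr2:62412232-62412381 (minus strand), chr15:75048838-75048987 (minus strand) and chr9:88327459-88327608 (plus strand).
Dpp4: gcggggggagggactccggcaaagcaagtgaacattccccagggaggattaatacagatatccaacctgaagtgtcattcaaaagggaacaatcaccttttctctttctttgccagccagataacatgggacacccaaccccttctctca
Ly6c1: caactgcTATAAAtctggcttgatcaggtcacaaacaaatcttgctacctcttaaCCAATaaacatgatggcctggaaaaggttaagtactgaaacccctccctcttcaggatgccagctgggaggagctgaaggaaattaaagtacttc
Nt5e: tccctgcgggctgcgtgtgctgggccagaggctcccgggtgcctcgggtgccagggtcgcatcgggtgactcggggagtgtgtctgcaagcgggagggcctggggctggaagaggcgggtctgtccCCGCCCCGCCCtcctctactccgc
The motifs were searched on both strands of the 250 bases before the start, overlapping matches included. The GC box GGGCGG was found for Nt5e and Cd9 (32.7% of 32851 promoters), the CCAAT box CCAAT for Ly6c1 (the entry shown) and Pi16 (33.8%), and the TATA box TATAAA for Dpp4, further from the start than the stretch shown, and Ly6c1 (12.4%). RefSeq has a second Ly6c1 entry, with its 150 bases at chr15:75048664-75048813, in which none of the 5 motifs was found and 53.2% of the 250 bases were G or C. The AP-1 letters TGANTCA (6.75%) and the STAT letters TTCNNNGAA (7.02%) were found for none of the 7. The share of G and C in the 250 bases was 43.6% for Dpp4, 48.4% for Ly6c1 and 72.0% for Nt5e. No motif of the 5 searched was shared by all 3 promoters shown.

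Genes that accompany Dpp4 and Pi16 in interstitial fibroblasts were mostly lower in the wound bed. Apart from the markers themselves, 14 of 20 tested genes of this list had an isoform called lower and 1 had one called higher, beside the 9.16% and 7.21% of all tested genes given above. Their median log2 ratio of gene sums was -1.23, against -0.16 for all 13079 tested genes with at least 1 FPKM in the higher group. Smpd3, which encodes a neutral sphingomyelinase, fell to 5.51 FPKM in the wound bed, against 95.1 FPKM in nonwounded skin. Dact2, a modulator of Wnt signalling, fell to 1.32 FPKM, against 12.3 FPKM in nonwounded skin. Bmp7, a bone morphogenetic protein gene, fell to 5.29 FPKM, against 31.6 FPKM in nonwounded skin, and Limch1, an actomyosin regulator gene, to 1.48 FPKM, against 9.12 FPKM. Il33, an alarmin cytokine gene, was the exception called higher, at 135 FPKM in the wound bed and 21.3 FPKM in nonwounded skin, and Timp2, a metalloproteinase inhibitor gene, stood at 599 FPKM in the wound bed and 1075 FPKM in nonwounded skin without a call. The list was written with earlier results of these data known, so its counts are a description. For the lists that follow, the same shares of all tested genes are the background of the counts by adjusted p, while counts by unadjusted p have none.

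In a list of committed preadipocyte and regulatory stromal genes, Cd9 apart, 7 of 17 tested genes were called higher and 4 lower, with a median log2 ratio of 0.46. Adam12, a membrane metalloproteinase gene, rose to 63.7 FPKM in the wound bed, against 1.98 FPKM in nonwounded skin. The adhesion receptor genes Icam1 and Vcam1 rose to 139 and 86.7 FPKM in the wound bed, against 9.52 and 8.49 FPKM in nonwounded skin, and Aoc3, which encodes an amine oxidase of vessels and fat, to 29.8 FPKM, against 8.87 FPKM. Igfbp3 fell to 63.2 FPKM, against 855 FPKM in nonwounded skin, Fmo2, a monooxygenase gene, to 2.47 FPKM, against 13.0 FPKM, and the fatty acid carrier gene Fabp4 to 45.4 FPKM, against 150 FPKM. Clec11a was called lower at 33.6 FPKM in the wound bed and 55.1 FPKM in nonwounded skin, and the chemokine gene Cxcl12 stood at 186 FPKM in the wound bed and 128 FPKM in nonwounded skin without a call. Macrophages and endothelial cells can also express Icam1 and Vcam1, and the values of their markers are given above.

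**Figure D4:**
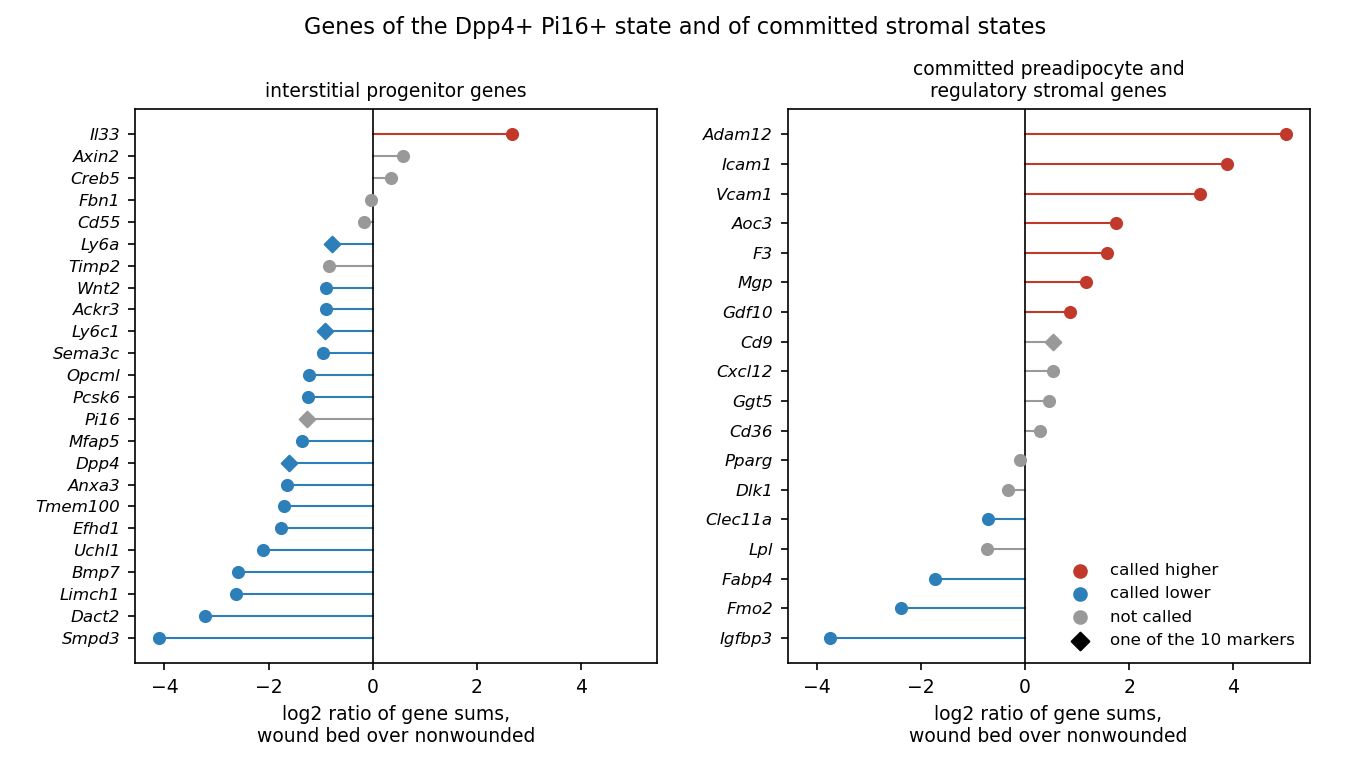
Log2 ratio of gene sums, wound bed over nonwounded (horizontal axis), for each gene (rows) of the interstitial progenitor list (left) and of the committed preadipocyte and regulatory stromal list (right), red if an isoform was called higher, blue if lower, grey if neither, with diamonds for the 5 of the 10 markers that are in these lists. Without the markers, the medians are -1.23 on the left and 0.46 on the right.

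Among 27 tested genes of other mesenchymal surface proteins, 9 were called higher and 4 lower (median log2 ratio 0.33), and Icam1, Vcam1, F3 and Dlk1 also stand in the committed preadipocyte list. Cd44, the hyaluronan receptor gene, rose to 109 FPKM in the wound bed, against 7.18 FPKM in nonwounded skin, and Tnfrsf12a, the receptor gene of the cytokine TWEAK, to 99.1 FPKM, against 9.25 FPKM. Lepr, the leptin receptor gene, fell to 0.667 FPKM, against 3.64 FPKM in nonwounded skin, Cd200 to 3.10 FPKM, against 11.9 FPKM, Alcam to 1.06 FPKM, against 2.93 FPKM, and the ferritin receptor gene Scara5 to 132 FPKM, against 343 FPKM. Itgb1, which encodes the integrin chain CD29, stood at 197 FPKM in the wound bed and 117 FPKM in nonwounded skin without a call, and Pdgfrb at 41.4 FPKM in the wound bed and 27.9 FPKM in nonwounded skin, also without a call. Cd248 (endosialin) and Cd81, 2 abundant surface genes of the list, were not called either, at 385 and 216 FPKM in the wound bed and 580 and 282 FPKM in nonwounded skin. The list thus had calls in both directions, and whether it differed from the 10 markers was not tested.

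The calls among relatives of the markers by family did not share 1 direction. In the Ly6 family, Ly6a and Ly6c1 apart, 2 of 15 tested genes had an isoform called higher and 1 had one called lower. At an unadjusted Cuffdiff p under 0.05 the counts were 2 and 3. The median log2 ratio of gene sums was -0.72, but some of the lower genes were uncalled and stood at low levels. Examples were Ly6k, at 0.331 FPKM in the wound bed and 2.52 FPKM in nonwounded skin, and Ly6g6c, at 0.385 FPKM in the wound bed and 4.98 FPKM in nonwounded skin. The sum over the list without Ly6a and Ly6c1 went the other way, at 468 FPKM in the wound bed and 365 FPKM in nonwounded skin. Plaur, the urokinase receptor gene, rose to 43.8 FPKM in the wound bed, against 6.63 FPKM in nonwounded skin. Ly6e had isoforms called in both directions and a gene sum of 315 FPKM in the wound bed and 193 FPKM in nonwounded skin: NM_001164040 stood at 274 FPKM in the wound bed and 96.4 FPKM in nonwounded skin, whereas NM_001164038 stood at 24.6 FPKM in the wound bed and 68.0 FPKM in nonwounded skin. Ly6c2, the near copy of Ly6c1, stood at 85.4 FPKM in the wound bed and 119 FPKM in nonwounded skin and was not called (Benjamini-Hochberg adjusted p = 0.220 from the authors' test).

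Of 20 tested tetraspanin genes besides Cd9, 3 were called higher and 2 lower (median log2 ratio -0.02). Tspan11 rose to 26.2 FPKM in the wound bed, against 5.62 FPKM in nonwounded skin, Tspan18 to 17.7 FPKM, against 8.01 FPKM, and Cd53, a leukocyte tetraspanin gene, to 10.3 FPKM, against 3.47 FPKM. Tspan7 fell to 2.93 FPKM, against 12.1 FPKM in nonwounded skin, and Tspan5 to 18.3 FPKM, against 32.4 FPKM. Cd63, the most abundant of the family, stood at 965 FPKM in the wound bed and 1019 FPKM in nonwounded skin without a call. Of 9 tested partner genes of CD9, 1 was called higher, the immunoglobulin family gene Igsf8, at 32.0 FPKM in the wound bed and 8.54 FPKM in nonwounded skin. At an unadjusted Cuffdiff p under 0.05, 5 of these partners were higher and 0 lower, and their median log2 ratio was 0.67.

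Among proline-specific peptidases other than Dpp4, 0 of 11 tested genes were called higher and 1 was called lower, beside 1 and 2 at an unadjusted Cuffdiff p under 0.05. That gene, Xpnpep2, which encodes a membrane aminopeptidase, fell to 10.1 FPKM in the wound bed, against 26.9 FPKM in nonwounded skin. Fap, the closest relative of Dpp4 and a marker of activated fibroblasts, stood at 40.5 FPKM in the wound bed and 47.4 FPKM in nonwounded skin and was not called (Benjamini-Hochberg adjusted p = 0.542 from the authors' test), and neither was Xpnpep1, at 38.0 FPKM in the wound bed and 28.5 FPKM in nonwounded skin. Of 11 tested substrates and ligands of DPP4, 4 were called higher and 0 lower, beside 6 and 0 at an unadjusted Cuffdiff p under 0.05. Cxcl10, a chemokine gene that acts on T cells, rose to 151 FPKM in the wound bed, against 9.24 FPKM in nonwounded skin, Cxcl9 to 9.59 FPKM, against 1.26 FPKM, and the caveolin gene Cav1 to 86.9 FPKM, against 42.7 FPKM. Csf3 was called at 5.72 FPKM in the wound bed and was listed at 0 in nonwounded skin, while the eosinophil chemokine gene Ccl11 stood at 105 FPKM in the wound bed and 135 FPKM in nonwounded skin without a call.

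Around Nt5e, 1 of 18 tested genes of extracellular nucleotides and adenosine was called higher and 1 lower. At an unadjusted Cuffdiff p under 0.05 the counts were 4 and 2, and the median log2 ratio was 0.59. The sum over the list without Nt5e went the other way, at 259 FPKM in the wound bed and 289 FPKM in nonwounded skin. Panx1, which encodes a channel that releases ATP, rose to 37.8 FPKM in the wound bed, against 5.26 FPKM in nonwounded skin. Slc29a1, the gene of an adenosine transporter, fell to 32.8 FPKM, against 117 FPKM in nonwounded skin. Entpd2, an ectonucleotidase gene, stood at 48.7 FPKM in the wound bed and 39.4 FPKM in nonwounded skin, and the adenosine kinase gene Adk at 25.7 FPKM in the wound bed and 40.8 FPKM in nonwounded skin, without a call for either.

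Relatives of Pi16 in the CAP family were called in both directions, 3 of 6 tested genes higher and 2 lower. Crispld2 rose to 40.4 FPKM in the wound bed, against 8.03 FPKM in nonwounded skin, Glipr1 to 18.1 FPKM, against 1.74 FPKM, and Glipr2 to 98.9 FPKM, against 50.5 FPKM. Crispld1 fell to 2.94 FPKM, against 27.2 FPKM in nonwounded skin, and Glipr1l1 was called lower at 1.84 FPKM in nonwounded skin and listed at 0 in the wound bed. Crisp2 stood at 0.265 FPKM in the wound bed and 24.9 FPKM in nonwounded skin without a call (adjusted p = 0.120 from the authors' test).

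In the list of PDGF receptor alpha signalling, Pdgfra apart, 4 of 19 tested genes were called higher and 0 lower, beside 5 and 1 at an unadjusted Cuffdiff p under 0.05. They were Nrp1, a co-receptor gene (23.0 FPKM in the wound bed and 9.21 FPKM in nonwounded skin), the ligand gene Pdgfc (12.3 FPKM in the wound bed and 5.07 FPKM in nonwounded skin), Cbl, a ubiquitin ligase gene that acts on activated receptors (5.14 FPKM in the wound bed and 2.26 FPKM in nonwounded skin), and Plat, a protease gene whose product activates PDGF-CC (361 FPKM in the wound bed and 191 FPKM in nonwounded skin). In the THY1 partner list 4 of 13 tested genes besides Thy1 were called higher and 1 lower. Itga5, the fibronectin receptor chain, rose to 98.0 FPKM in the wound bed, against 22.7 FPKM in nonwounded skin, and Sdc4, a syndecan gene, to 58.8 FPKM, against 20.1 FPKM. The leukocyte integrin genes Itgam and Itgb2 rose to 13.2 and 14.5 FPKM, against 2.13 and 2.73 FPKM in nonwounded skin. Fyn, a kinase gene of the Src family, fell to 31.5 FPKM, against 63.4 FPKM in nonwounded skin.

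Fyn also belongs to the list of CD24 partners, where 3 of 7 tested genes besides Cd24a were called lower and 0 higher, beside 3 and 3 at an unadjusted Cuffdiff p under 0.05. The others were the neural adhesion genes Nrcam, at 1.87 FPKM in the wound bed and 8.05 FPKM in nonwounded skin, and L1cam, at 0.255 FPKM in the wound bed and 1.14 FPKM in nonwounded skin. Hmgb1, a gene of a nuclear protein that binds CD24 when released, stood at 68.2 FPKM in the wound bed and 82.5 FPKM in nonwounded skin, and Lyn, a Src family kinase gene, at 5.73 FPKM in the wound bed and 2.54 FPKM in nonwounded skin, both without a call. Of 6 tested genes of the CD34 family and of selectin ligands, Cd34 apart, 0 were called by the adjusted Cuffdiff p, and 1 was higher at an unadjusted p under 0.05, the selectin gene Sele, which was named after its value was seen and stood at 3.52 FPKM in the wound bed and 0.0928 FPKM in nonwounded skin.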

How the data were processed

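RNA of sorted cells was made into TruSeq mRNA libraries, per the labels' protocols. Reads were processed with TopHat2 2.0.2 and Cuffdiff 2.0.2 and genome mm9, per the submitters' processing notes. The authors deposited the FPKM of each isoform as 1 pooled value per group, with the Cuffdiff p-value of the contrast. No value per sample is in the table, so no count test was run, no exact test over samples could be made, no SD is given and sequencing depth is unknown. Status was OK for 17775 of 34535 isoforms, 16745 were marked as not tested, and 15 more (13 with too many fragments, 2 failed) were left out of gene sums.

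Here the deposited p-values were adjusted by Benjamini-Hochberg over the 17775 isoforms, which gave the deposited significance column for all 34535. The adjustment was tested on simulated data. Log2 fold changes are the wound bed over nonwounded FPKM without a pseudocount. The median gene shift was -0.13 over 10910 genes with at least 1 FPKM in both groups and was not removed. Of the symbols, 25 had become dates and were restored by transcript identifier. Starts are counted from 1. For all 10 markers the start or end of the locus lay within 10 bases of GRCm38, so positions are those of the table and the named build is uncertain.

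The markers and lists were chosen with earlier results of these data known. Named from each list were up to 4 called genes per direction with the largest gene sum ratio and up to 2 uncalled ones with the highest sum. Among genes named outside this rule were Lyz2, Prrx1, Epcam, Cdh5, Ptprc, Slc4a1, Epb4.2, F3, Dlk1 and Sele. The share called at a mean of at least 10 FPKM was added after seeing the data. Alternatives were other thresholds, FPKM minimums, adjustment, centring, pseudocounts and the major isoform. Python 3.11.15, numpy 2.4.6, pandas 2.3.3 and matplotlib 3.10.9 were used.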

Additional observations from a re-analysis of the deposited data

How the results depend on the processing

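The count of 5 markers with an isoform called lower was 4 with a threshold of 0.01 and 4 where the log2 fold change had to reach 1 (both without Nt5e), and 4 with the most abundant isoform of each gene only (without Ly6a). It was 7 at an adjusted p under 0.1, where Pi16 and Cd34 were added. It was 5 with FPKM minimums of 1 and 5, with adjustment over isoforms of at least 1 FPKM alone, without isoforms listed at 0, and after centring. Apart from the adjustment, these settings could not have changed the count. The called isoforms had at least 18.6 FPKM in nonwounded skin, values above 0 in both groups and log2 fold changes of -0.84 or lower. The count called higher was 0 under these 9 alternatives, of which only the threshold of 0.1 and the changed adjustment could have raised it. No gene sum ratio changed sign. The only marker isoform of another status, Ly6a NM_001271446, was listed at 0 in both groups, so leaving it out could not move a ratio. Pseudocounts of 0.1 and 1 and leaving out isoforms of other status moved each of the 10 ratios by less than 0.1 on the log2 scale, the major isoform in place of the sum moved 3 by more, and centring moves all 10 by 0.13. No paired analysis was possible because the table holds 1 value per group and no value per sample, and leaving out each replicate was not run for the same reason. The depth behind each value is unknown, and isoforms of 1 gene share reads.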

Other observations

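The GPI anchor holds Ly6a, Ly6c1, Cd24a, Thy1 and Nt5e in the membrane. Of 29 tested genes that make and transfer it, 2 were called higher in the wound bed and 2 lower. Those counts lie near the shares of all tested genes, 7.21% called higher and 9.16% lower. The median log2 ratio of gene sums in this list was -0.38. Piga, a gene of the first step of synthesis, rose to 7.53 FPKM in the wound bed, against 2.15 FPKM in nonwounded skin, and Pigs, of the transferring complex, to 31.5 FPKM, against 17.1 FPKM. Pigz, a mannosyltransferase gene, fell to 3.10 FPKM, against 13.0 FPKM in nonwounded skin, and Pigc to 5.30 FPKM, against 13.7 FPKM. Pigt and Dpm2, the most abundant uncalled genes of the list, stood at 41.6 and 36.6 FPKM in the wound bed and at 49.8 FPKM each in nonwounded skin.

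Proteases that shed or cut surface proteins were called higher in 6 of 14 tested cases and lower in 1, beside 7.21% and 9.16% of all tested genes. Mmp14, a membrane-bound matrix metalloproteinase gene, rose to 819 FPKM in the wound bed, against 241 FPKM in nonwounded skin, and Adam8, a sheddase gene also expressed by leukocytes, to 13.0 FPKM, against 0.790 FPKM. Mmp9, another gene of leukocytes, rose to 4.56 FPKM, against 0.874 FPKM in nonwounded skin. Rhbdf1, whose product controls the sheddase ADAM17, fell to 20.9 FPKM, against 32.0 FPKM in nonwounded skin. Mmp2 and Adam15 stood at 1435 and 41.3 FPKM in the wound bed and 907 and 32.1 FPKM in nonwounded skin without a call. RNA levels do not show how much of a marker was on the surface.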
